A study of Mus musculus with 21 samples.

Results

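The mitosis genes described here are a list of 56 spindle, kinetochore, spindle checkpoint, chromosome condensation and cytokinesis genes. Each gene was taken by its probe set of highest mean log2 level over all 21 arrays, among probe sets annotated to that gene alone. By this rule 55 of the 56 were measured, among 18194 genes in all, and Ccnb1, with no probe set annotated to it alone, was not analysed here. Membership rests on gene function and not on measured values, though the list was drawn up with results of these arrays known.

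The arrays held RNA of sorted mouse bone marrow cells of the strain background C57/BL6. LSK cells (lineage negative, Sca-1 positive, Kit positive) hold the blood stem cells and early multipotent progenitors, and GMP are granulocyte macrophage progenitors. The 4 groups were 6 LSK arrays of control mice (Dot1 wt/wt x Mx-Cre), 6 LSK arrays of Dot1l-deleted mice (Dot1l fl/fl x Mx-Cre, Dot1l -/-), 5 GMP arrays of control mice and 4 GMP arrays of Dot1l-deleted mice. Control mice carried Mx-Cre too and, like the deleted mice, were given PIPC. PIPC is a double-stranded RNA that raises interferon and so turns on the Mx promoter that drives Cre, in blood cells and in other tissues. Dot1l encodes a histone H3 methyltransferase whose mark lies on transcribed genes. The sources used here give neither the age of the mice nor the time between injection and sorting. Titles carry K numbers, and no label says whether arrays come from separate mice or pools, so p-values cover only how these arrays vary, which may in part be technical variation.

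Mitosis begins when CDK1 bound to cyclins A and B is switched on by CDC25 phosphatases and supported by the Polo and Aurora kinases. Condensins and topoisomerase II fold the chromosomes, kinesins and their partners build the spindle, and kinetochores attach each chromosome to it. The checkpoint kinases hold back the anaphase-promoting complex until all are attached; CDC20 and the ubiquitin-conjugating enzyme UBE2C then let it destroy securin and cyclin B, and the cell divides. Most of these transcripts are made in late S, G2 and M phase, and in the marrow long-term stem cells are mostly quiescent while later progenitors divide often. In bulk samples such as these, fewer dividing cells and less of a transcript per cell cannot be told apart.

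Values are log2 intensities as the authors normalized them with RMA, so a difference of 1 is a factor of 2. Differences are given ± SE from limma, fitted with 4 group means over all arrays and adjusted over all 18194 genes, and a gene is called where its adjusted p was under 0.05. One array stood apart before any comparison. The Dot1l-deleted LSK array K1272 had an upper quartile of 6.18, against 6.60 to 6.78 on the other LSK arrays. Its mean Spearman correlation with its own group was 0.684, against 0.855 to 0.943 on the others. LSK counts and medians over the mitosis genes are therefore given with and without it. Differences of single genes are with all arrays unless stated. Without K1272 all 55 mitosis genes were higher in deleted LSK, also those given below with a difference under 0. Both Dot1l probe sets overlapped between control and deleted arrays, at 6.08 to 6.93 in control and 5.95 to 7.01 in deleted LSK for the brighter one. The sources used here do not say whether these probe sets lie in the deleted part, so they check nothing.

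The cell labels were set against their markers. The summed intensity of 5 measured LSK markers (Kit, Flt3, Mecom, Hlf and Slamf1) ranged from 3608 to 5251 on control LSK arrays and from 131 to 4316 on deleted LSK arrays. All 5 were lower in deleted LSK, with a median difference of -2.27, 4 at an unadjusted p under 0.05 and none called. Of 7 GMP markers such as Mpo, Prtn3 and Ctsg, 6 were higher in deleted LSK, with a median of 0.61 and summed intensities of 7358 to 11600 in control and 9759 to 22289 in deleted LSK. All 8 late neutrophil markers were lower there, with a median of -2.35 and summed intensities of 3742 to 55178 in control and 797 to 7003 in deleted LSK. No marker was listed at 0 on any array. Deleted array K1359 was apart from the others in these sums: its LSK markers summed to 4316, within the control range, and to 131 to 1371 on the other 5, and its GMP markers to 9759, against 12447 on K1272 and 18383 to 22289 on the other 4. K1359 is also the deleted LSK array whose mitosis level lay among the controls, as given below. The part of these marker shifts in the mitosis results was not tested.

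Promoter windows were found in RefSeq sequence of build GRCm38.p6 for 46 of the 55 measured genes, each reaching from 250 bases before to 50 bases after the annotated start. The CHR, the element through which the DREAM and MuvB complexes hold down and then raise G2 and M phase genes, has the core TTTGAA, which reads as TTCAAA when found on the other strand. The core of the NF-Y box, which often lies upstream of it, is CCAAT, or on the other strand ATTGG. Both cores were searched for on both strands, and a match of one can overlap a match of the other by at most 1 base. A TTTGAA match was found in 32 of the 46 windows (69.6%), against 13.4% of the 14453 windows of measured genes. Within 50 bases on either side of the start it was found in 29 (63.0%), against 3.33%. A CCAAT match was in 32 windows (69.6%) against 38.2%, and both were in 27 (58.7%) against 5.37%. A match is a description of the letters and not a bound site.

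The 150 bases before the start are printed for the member of smallest p in each of 4 comparisons, with either core, on either strand, in capitals; all 4 genes lie on the plus strand. These are Ube2c (chr2:164769779-164769928) for LSK, Smc2 (chr4:52439071-52439220) for GMP, Kif11 (chr19:37376232-37376381) for control GMP against LSK, and Nek2 (chr1:191821323-191821472) for deleted GMP against LSK:
Ube2c: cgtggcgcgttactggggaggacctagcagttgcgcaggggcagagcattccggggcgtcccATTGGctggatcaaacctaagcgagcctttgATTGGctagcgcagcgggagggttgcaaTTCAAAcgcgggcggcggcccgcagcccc
Smc2: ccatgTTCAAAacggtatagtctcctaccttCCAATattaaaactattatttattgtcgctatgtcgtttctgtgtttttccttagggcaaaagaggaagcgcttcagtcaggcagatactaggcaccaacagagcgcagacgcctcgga
Kif11: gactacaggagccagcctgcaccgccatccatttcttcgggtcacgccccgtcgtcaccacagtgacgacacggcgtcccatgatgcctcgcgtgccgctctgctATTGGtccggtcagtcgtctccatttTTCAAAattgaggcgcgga
Nek2: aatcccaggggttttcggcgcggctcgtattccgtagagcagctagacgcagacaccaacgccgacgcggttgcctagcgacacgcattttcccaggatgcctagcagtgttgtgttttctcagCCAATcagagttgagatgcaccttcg
The Ube2c and Kif11 stretches hold both elements close to the start, Smc2 holds them far upstream (with another CHR core, at base 27 after its start, outside the stretch), and Nek2 holds CCAAT alone.

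Short stretches around the CHR core nearest the start, in capitals, are shown for 6 further members named below, each written on the strand of its gene. They are Bub1b (chr2:118598235-118598260, plus strand), Hmmr (chr11:40733416-40733445, minus strand), Ndc80 (chr17:71526815-71526844, minus strand), Cdc20 (chr4:118437348-118437377, minus strand), Cdk1 (chr10:69352914-69352943, minus strand) and Plk1 (chr7:122159449-122159478, plus strand), as examples among the windows that hold the core:
Bub1b: gtcaagagacgttaaaTTTGAAactt
Hmmr: ggaaagttgaggtaaaTTTGAAttcaggcg
Ndc80: ggcggaaactttaaaaTTCAAAccgccttg
Cdc20: gttaagacagttgggtTTTGAAggagccaa
Cdk1: gctttaccgcggcgagTTTGAAactgctgg
Plk1: cgttcccagcgccgcgTTTGAAttcgggga
The core was not found in the other 14 windows, among them those of Bub1, Cenpe and Plk4, which are described below as well.

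**Figure D1:**
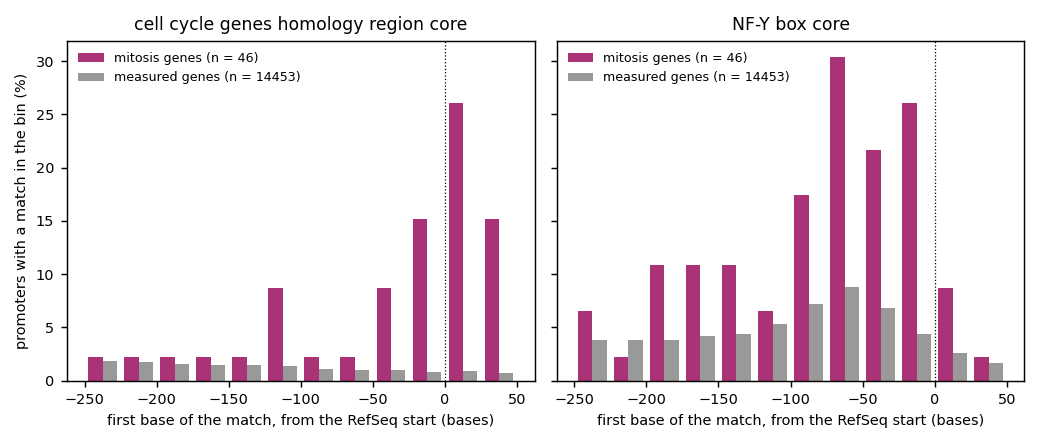
Share of promoters (percent, y axis) with a motif whose first base lies in each 25-base bin from the RefSeq start (x axis, bases), for the 46 mitosis gene windows and the 14453 windows of measured genes, in 1 panel for the CHR core and 1 for the NF-Y box core. The CHR core of the mitosis genes gathers near the start, with 26.1% of windows in the bin from 0 to 25 bases after it.

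Array by array, each gene was set against its own mean over all 21 arrays and the median over the 55 genes was taken. Control LSK arrays ranged from -0.74 (K1602) to 0.19 (K1581), with a mean of -0.17 ± 0.31 (SD, n = 6). The deleted LSK arrays stood at 1.17 for K1421, 0.90 for K1190, 0.63 for K1091 and 0.41 for K1422, with K1359 at -0.0046 and K1272 at -1.23. So 4 of the 6 deleted LSK arrays lay above every control, K1359 lay among the controls, and K1272 lay below all of them.

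Control GMP arrays stood at -0.18 for K1604, -0.21 for K1602, -0.28 for K1581, -0.60 for K1601 and -0.66 for K1603. Deleted GMP arrays stood at 0.60 for K1190, 0.35 for K1272, 0.34 for K1421 and -0.024 for K1359, all above every control GMP array. In both cell types K1359 was the deleted array nearest the controls, K1272 of LSK aside. Against the mean of the control LSK arrays, 55 of 55 genes were higher on K1421, where 42.0% of all genes were, 52 on K1190 (46.7%), 50 on K1091 (52.4%), 45 on K1422 (55.2%) and 32 on K1359 (39.1%). On K1272, 13 were higher, where 60.6% of all genes were. Of the deleted GMP arrays, K1190 had 47 genes above the control GMP mean (34.1% of all genes), K1272 42 (34.9%), K1421 40 (44.5%) and K1359 39 (48.0%).

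**Figure D2:**
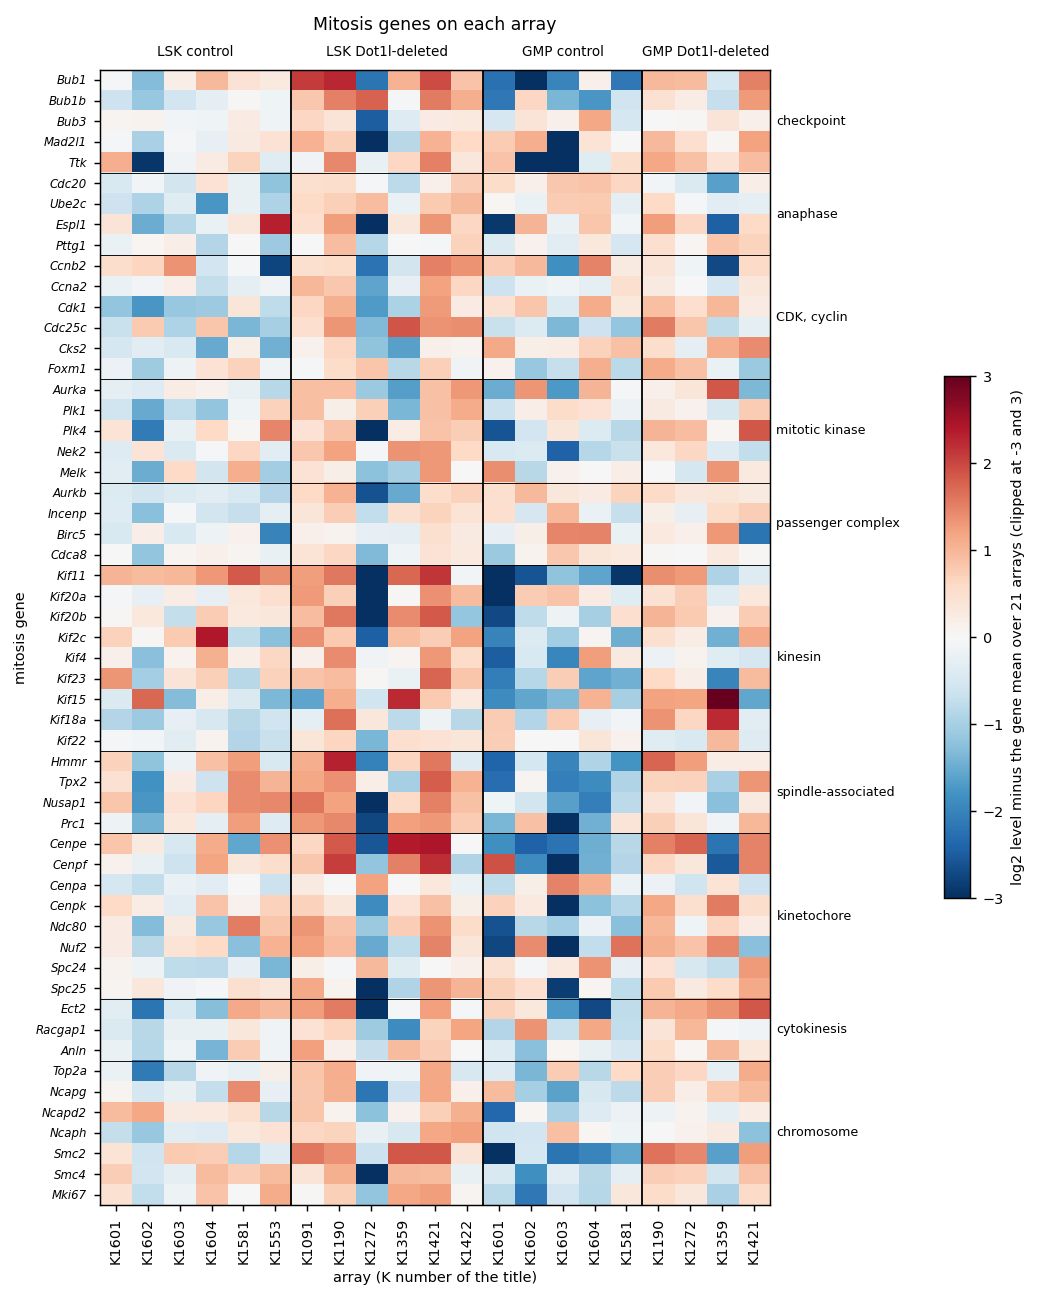
Log2 level of each of the 55 measured mitosis genes (rows, grouped by role) on each of the 21 arrays (columns, by group and K number), as the difference from the gene's mean over all arrays, with the colour scale limited to -3 and 3. On LSK array K1272, 28 of the genes lie below every control LSK array (25.2% of all genes) and 7 above (47.1%); on K1421 all 55 lie above the control mean (42.0%).

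**Figure D3:**
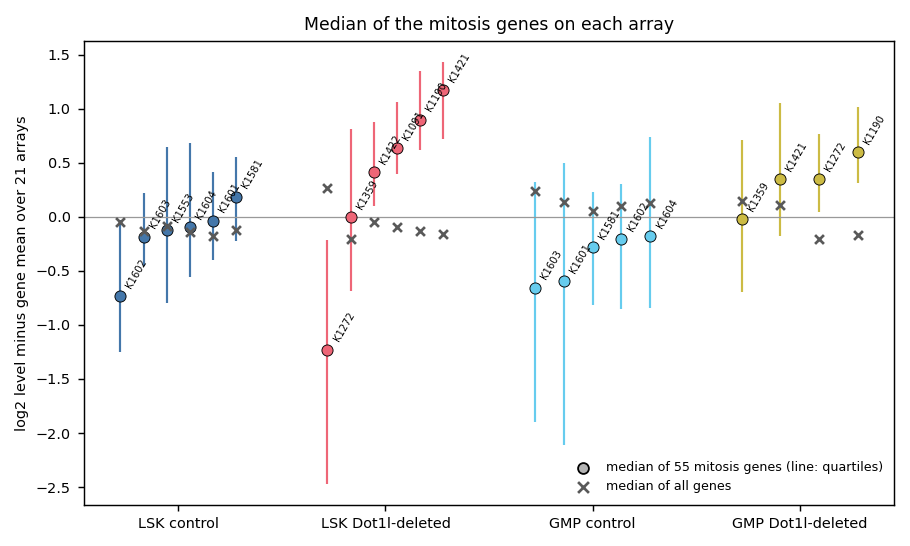
Median over the 55 mitosis genes of the log2 level minus each gene's mean (circles, with lines for the quartiles) on each array by group, with the median over all genes as crosses. The 4 deleted GMP arrays, at -0.02 to 0.60, lie above the 5 control GMP arrays, at -0.66 to -0.18.

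In LSK cells, transcripts of the mitosis machinery were for the most part higher after Dot1l deletion, but no single gene passed the test. Of the 55 genes, 44 (80.0%) were higher, against 58.4% of all genes, and the median difference was 0.47, against 0.060 over all genes. Limma called 0 of the 55, as it called 0 of all 18194 genes (0.0%). An unadjusted p under 0.05 was reached by 9 genes (16.4%), all of them higher, and the upward share over all genes was 3.13%. Without array K1272 all 55 were higher, against 45.2% of all genes, with a median of 0.72 against -0.027. Limma then called 0 again, and 17 genes (30.9%) reached an unadjusted p under 0.05, all higher, against 3.36% of all genes. Genes expressed in the same dividing cells are not independent of each other, so these counts describe the list and are no test of it. With array quality weights limma called 13 members in LSK and 10 in GMP, beside 663 and 3778 of all genes; the weights did not converge.

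Among the regulators of anaphase, Ube2c had the smallest p of the list in LSK. Its control arrays ranged from 8.82 to 10.36 with a median of 9.81, and its deleted arrays from 10.37 to 11.56 with a median of 11.32. The groups did not overlap, by a narrow margin: the lowest deleted array, K1359 at 10.37, stood next to the highest control, K1581 at 10.36. The difference was 1.43 ± 0.28, or 2.7-fold, with a limma adjusted p of 0.0879. Here K1272 was among the high arrays, and without K1359 the difference was 1.60 with a limma adjusted p of 0.0256, so that this 1 array decides the call. Ube2c was the only member whose groups did not overlap in LSK, as was so, in the higher direction, for 0.187% of all genes. Cdc20, the activator that works with the same complex, differed by 0.53 ± 0.32, securin (Pttg1) by 0.43 ± 0.29 and separase (Espl1) by 0.042 ± 0.84. For Espl1, K1272 was at 3.82, below every control.

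Of the spindle checkpoint genes, Bub1b had the largest difference of the whole list in LSK. It encodes BUBR1, which holds CDC20 inactive until chromosomes are attached. Control arrays ranged from 5.99 to 7.17 with a median of 6.72, and deleted arrays from 7.09 to 8.91 with a median of 8.43, with K1359 alone inside the control range and K1272 the highest array. The difference was 1.57 ± 0.42, or 2.96-fold, with a limma adjusted p of 0.316. The checkpoint kinases Bub1 and Ttk (MPS1) differed by 0.92 ± 0.66 and 0.83 ± 0.71. For Bub1, K1272 was at 3.77 and the other 5 deleted arrays at 6.83 or above, and without K1272 its difference was 1.56 ± 0.52. Mad2l1 and Bub3, the other checkpoint genes, differed by -0.071 ± 0.73 and -0.24 ± 0.40. K1272 was below every control for both, at 4.65 and 7.18, and without it both were higher in deleted LSK.

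The genes of CDK1 itself followed. Cdk1, the kinase that drives entry into mitosis, ranged from 6.17 to 8.28 with a median of 6.80 on control arrays and from 6.21 to 9.19 with a median of 8.35 on deleted arrays. K1272 at 6.21 and K1359 at 6.96 lay among the controls, and K1422 just below the highest of them. The difference was 1.02 ± 0.45, and 1.38 ± 0.39 without K1272. Cdc25c, the phosphatase that activates CDK1, ranged from 5.01 to 7.21 with a median of 5.58 in control and from 5.04 to 8.26 with a median of 7.71 in deleted LSK, where K1272 was the one array at the level of the lowest controls. Its difference was 1.24 ± 0.52 with all arrays and 1.68 ± 0.44 without K1272, with limma adjusted p of 0.792 and 0.301; its other probe set differed by 0.45. Cyclins A2 and B2 (Ccna2, Ccnb2) differed by 0.50 ± 0.36 and 0.33 ± 0.76, the CDK-binding subunit Cks2 by 0.37 ± 0.39 and Foxm1, a transcription factor of G2 and M phase genes, by 0.25 ± 0.43.

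Among the other mitotic kinases, Plk1 and Nek2 had the largest differences. Plk1, the Polo kinase of mitotic entry and spindle assembly, ranged from 5.37 to 7.57 with a median of 6.21 in control and from 5.53 to 8.004 with a median of 7.68 in deleted LSK. The deleted array K1359 at 5.53 lay near the lowest controls, while the control K1553 at 7.57 lay among the deleted arrays. Its difference was 0.99 ± 0.40 (limma adjusted p = 0.788). Nek2, a kinase that separates the centrosomes, ranged from 6.77 to 7.82 with a median of 6.997 in control and from 7.13 to 8.55 with a median of 8.21 in deleted LSK, with K1272 and K1422 inside the control range. It differed by 0.90 ± 0.35 (limma adjusted p = 0.75), and its 3 other probe sets by 0.82, -0.23 and 0.29. Aurka differed by 0.43 ± 0.61, Melk by 0.24 ± 0.49, and Plk4, which starts centriole duplication, by -0.030 ± 0.66. For Plk4, K1272 was at 4.76, below every control, and without it Plk4 was higher in deleted LSK.

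The chromosomal passenger complex corrects wrong attachments at the centromere. Its scaffold gene Incenp ranged from 10.15 to 11.35 with a median of 10.93 in control and from 10.66 to 12.13 with a median of 11.84 in deleted LSK. All deleted arrays but K1272, which was the lowest, lay above every control. The difference was 0.85 ± 0.31 with all arrays and 1.06 ± 0.28 without K1272, with limma adjusted p of 0.649 and 0.303. Its 4 other probe sets ranged from -0.27 to 0.65. The kinase gene Aurkb differed by 0.29 ± 0.46, Birc5 (survivin) by 0.54 ± 0.48 and Cdca8 (borealin) by 0.24 ± 0.34.

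Among the motors of the spindle, the median difference over 9 kinesins in LSK was 0.42, and 0.67 without K1272. They ranged from -0.64 for Kif11, taken up below, to 0.68, with 6 of the 9 higher. Kif18a, a motor that damps chromosome movements, had the smallest p of the kinesins: it ranged from 2.49 to 3.32 with a median of 2.86 in control and from 2.73 to 5.22 with a median of 3.36 in deleted LSK, which overlapped, and differed by 0.68 ± 0.43. It is a dim gene here: its control values lay below the medians of the control LSK arrays, at 4.68 to 4.75. Its other probe set was dimmer still and differed by 0.27. Kif22, a motor on chromosome arms, showed the weight of 1 array: K1272 was at 7.92, below all controls, and the other deleted arrays at 9.65 to 9.94, above all controls. Without K1272, Ube2c, Incenp and Kif22 were the 3 members with no overlap, against 0.594% of all genes. Of the spindle-associated genes, Tpx2, which activates Aurora A on microtubules, ranged from 5.97 to 9.22 with a median of 8.15 in control and from 6.79 to 9.63 with a median of 8.91 in deleted LSK and differed by 0.65 ± 0.57. Hmmr, Nusap1 and Prc1, the other members of that role, differed by 0.37 ± 0.59, -0.041 ± 0.67 and 0.66 ± 0.69. K1272 was below every control LSK array for each of them.

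The 8 kinetochore genes ranged from -0.43 to 0.69, with 6 of them higher in deleted LSK. All 8 were higher without K1272. Cenpa, the centromeric histone H3 variant, ranged from 6.82 to 7.54 with a median of 7.12 in control and from 7.36 to 8.74 with a median of 7.68 in deleted LSK, where K1272 was the highest array and the groups overlapped, and differed by 0.67 ± 0.33. Anln (anillin), a scaffold of the contractile ring, ranged from 4.005 to 6.16 with a median of 5.22 in control and from 4.70 to 6.62 with a median of 5.83 in deleted LSK, with broad overlap, and differed by 0.72 ± 0.35. Ncaph, the kleisin subunit of condensin I, ranged from 5.80 to 7.35 with a median of 6.55 in control and from 6.44 to 8.16 with a median of 7.58 in deleted LSK. Its deleted arrays K1359 and K1272 lay within the control range, and the difference was 0.81 ± 0.37 (limma adjusted p = 0.878). Top2a, the topoisomerase that untangles sister chromosomes, differed by 0.95 ± 0.43, and Mki67, the coat protein of mitotic chromosomes used as a marker of dividing cells, by 0.092 ± 0.45 (0.40 without K1272). The lowest difference of the list was that of Kif11, at -0.64 ± 0.70, and it too turned on K1272, which was at 5.86 while control arrays were at 9.80 or above. Without that array Kif11 differed by 0.074 ± 0.52, and with all arrays its 2 other probe sets differed by 0.36 and 0.11.

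**Figure D4:**
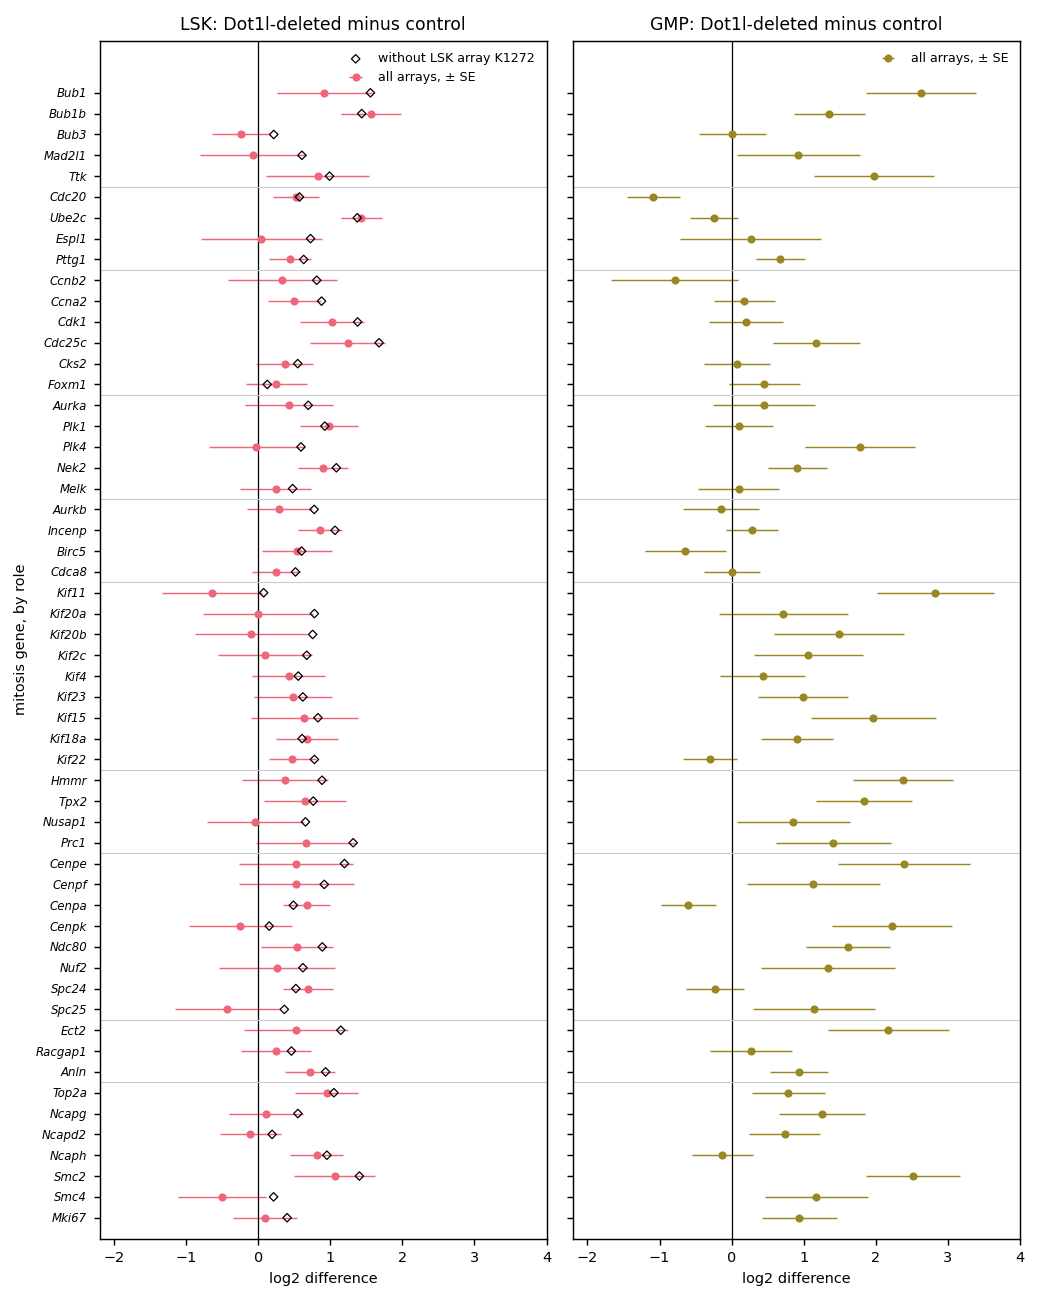
Dot1l-deleted minus control log2 difference ± SE for each of the 55 mitosis genes, ordered by role, in LSK (left) and GMP (right), with open diamonds in the LSK panel for the difference without array K1272. In LSK 44 genes lie above 0, and all 55 without K1272; in GMP 46 lie above 0, with larger values among kinesin, spindle-associated and kinetochore genes than among anaphase and passenger complex genes.

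In GMP, the differences varied by role: most spindle, kinetochore, checkpoint, cytokinesis and condensin genes were higher after Dot1l deletion, while regulators of anaphase and the passenger complex lay around their controls. Of the 55 genes, 46 (83.6%) were higher in deleted GMP, against 34.3% of all genes. The median difference was 0.90, against -0.20 over all genes, and the range -1.09 to 2.83. Limma called 0 of the 55 and 26 of all genes (0.143%). Upwards, 16 genes (29.1%) reached an unadjusted p under 0.05, against 5.72% of all genes. Downwards, 1 gene did (1.82%), against 8.23%. Medians by role ran from 1.62 over 4 spindle-associated genes, 1.36 over 5 checkpoint genes and 1.24 over 8 kinetochore genes to 0.011 over 4 anaphase genes and -0.070 over 4 passenger complex genes.

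The fit shares its spread over all 21 arrays, so LSK array K1272 widens the GMP test as well. Without it the GMP differences are the same, and limma called 4 members: Bub1 (adjusted p = 0.0247), Kif11 (0.0167), Hmmr (0.0363) and Smc2 (0.0385), or 7.27% of the list, beside 2.14% of all genes. Bub1 and Hmmr were dim on most control GMP arrays, as given below. The upper quartiles of the arrays also differed, at 6.19 to 6.57 in control GMP and 6.27 to 6.77 in deleted GMP. With the upper quartile as a covariate the median over the members was 0.42, against -0.073 over all genes, with 38 of 55 higher. Kif11, Smc2, Hmmr and Bub1 then differed by 1.97, 1.80, 1.63 and 2.06, less than in the main fit given below. Limma called 0 members and 36 of all genes. Of 7 GMP markers, 2 were higher in deleted GMP, with a median of -0.061 and summed intensities of 37696 to 53057 in control and 34502 to 46415 in deleted GMP. Of 5 LSK markers 3 were higher, and of 8 late neutrophil markers 0, with a median of -0.96. All 6 B cell markers were lower in deleted GMP, with a median of -0.74, 3 at an unadjusted p under 0.05 and summed intensities of 551 to 2173 in control and 213 to 405 in deleted GMP. All 5 T and NK cell markers were lower too, with a median of -0.51 and sums of 2270 to 2486 and 1098 to 2419. The eosinophil gene Prg2, at -3.20 ± 0.63, was the only called marker (limma adjusted p = 0.0465). Its list of eosinophil, basophil and mast cell markers overlapped, with sums of 549.5 to 1023.5 in control and 316.6 to 1046.1 in deleted GMP. The medians of that list by array averaged 0.66 ± 0.57 and 0.53 ± 0.72 (SD). The part of the upper quartile and of these markers in the GMP result was not tested further.

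Smc2 had the smallest p of the members in GMP. It encodes the ATPase shared by both condensins, the complexes that compact mitotic chromosomes. Control arrays stood at 7.35 on K1602, 6.31 on K1581, 5.90 on K1604, 5.67 on K1603 and 4.90 on K1601, and deleted arrays at 9.50 on K1190, 9.31 on K1272, 9.13 on K1421 and 6.24 on K1359. The deleted arrays other than K1359 lay far above every control, and K1359 lay inside the control range. The difference was 2.52 ± 0.65, or 5.73-fold, with a limma adjusted p of 0.14, and without K1359 it was 3.29 with a limma adjusted p of 0.0234. Of its 4 other probe sets, 3 differed by 1.82 to 2.52 and the dimmest by 0.13. Its partner Smc4 differed by 1.17 ± 0.71, and the condensin I subunits Ncapg, Ncapd2 and Ncaph by 1.25 ± 0.60, 0.74 ± 0.49 and -0.13 ± 0.43. Top2a differed by 0.79 ± 0.50 and Mki67 by 0.94 ± 0.52.

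Kif11, the motor that slides spindle poles apart (Eg5), had the largest difference in GMP. Control arrays stood at 7.64 on K1603, 7.26 on K1604, 6.27 on K1602, 5.92 on K1581 and 4.66 on K1601. Deleted arrays stood at 10.23 on K1190, 10.12 on K1272, 8.45 on K1421 and 7.91 on K1359, so every deleted array was above every control. The difference was 2.83 ± 0.81, or 7.11-fold (limma adjusted p = 0.175). Its 2 other probe sets were higher in deleted GMP as well, by 2.15 and 1.82. Kif15, a motor that can stand in for Kif11, differed by 1.97 ± 0.86, and the 9 kinesins together had a median of 0.99 and a range from -0.30, with 8 of 9 higher. The lowest value was that of Kif22, whose other probe sets differed by 0.54 and 0.18.

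Hmmr, which anchors microtubules at the spindle poles, gave the same separation. It stood at 5.65 on K1602, 5.29 on K1604, 4.39 on K1581, 4.22 on K1603 and 3.79 on K1601 in control GMP. In deleted GMP it stood at 7.93 on K1190, 7.44 on K1272, 6.41 on K1359 and 6.41 on K1421, again with no overlap. The difference was 2.38 ± 0.69 (limma adjusted p = 0.175), and its 4 other probe sets were higher too, by 0.67 to 1.53. Hmmr was dim on control arrays K1581, K1603 and K1601, where it lay below the array medians of 4.77 to 4.90. Tpx2 stood at 7.88 on K1602, 6.90 on K1581, 5.92 on K1604, 5.74 on K1603 and 5.52 on K1601 in control and 9.12 on K1421, 8.49 on K1272, 8.47 on K1190 and 6.83 on K1359 in deleted GMP. Only K1359 lay within the control range, and the difference was 1.84 ± 0.66 (limma adjusted p = 0.252). Of its 3 other probe sets, 1 differed by 2.06 and the others by -0.12 and 0.032.

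Of the checkpoint genes in GMP, Bub1 and Bub1b stood out. Bub1 was at 6.11 on K1604, 3.97 on K1603, 3.82 on K1581, 3.73 on K1601 and 2.69 on K1602 in control GMP. It was at 7.49 on K1421, 6.93 on K1190, 6.92 on K1272 and 5.44 on K1359 in deleted GMP, where K1359 lay below the highest control, K1604. The difference was 2.63 ± 0.77 (limma adjusted p = 0.175). Bub1 was dim in control GMP: on each array but K1604 it lay below that array's median, and these medians were 4.65 to 4.90. Bub1b was at 7.76 on K1602, 6.55 on K1581, 5.76 on K1603, 5.39 on K1604 and 4.999 on K1601 in control and at 8.40 on K1421, 7.59 on K1190, 7.36 on K1272 and 6.45 on K1359 in deleted GMP, with overlap through the control K1602 and the deleted K1359, and differed by 1.36 ± 0.49. The other probe sets showed less: 0.48 for Bub1, and 0.27 and -0.042 for Bub1b.

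At the kinetochore, Ndc80 encodes the subunit that grips the microtubule. It stood at 8.21 on K1604, 7.56 on K1602, 7.35 on K1603, 7.13 on K1581 and 5.78 on K1601 in control GMP. In deleted GMP it stood at 9.39 on K1190, 9.03 on K1359, 8.63 on K1421 and 8.26 on K1272, and the lowest of these was just above the highest control. The difference was 1.62 ± 0.58 (limma adjusted p = 0.248). Cenpe, a kinetochore motor, and Cenpk, a subunit of the inner kinetochore, differed by 2.39 ± 0.92 and 2.23 ± 0.83. Other probe sets differed by 0.75 for Cenpe and, all dimmer, by -0.60 and -0.18 for Cenpk. The 8 kinetochore genes ranged from -0.60 to 2.39, with 6 of them higher in deleted GMP. In the other direction, Cenpa differed by -0.60 ± 0.38 and Spc24 by -0.24 ± 0.40. The other probe sets of Cenpa were higher in deleted GMP, by 0.91 and 0.20.

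In cytokinesis, Ect2 activates RhoA at the cell equator. It was at 7.74 on K1601, 7.36 on K1602, 6.29 on K1581, 5.31 on K1603 and 4.35 on K1604 in control and at 8.90 on K1421, 8.40 on K1359, 8.17 on K1272 and 8.06 on K1190 in deleted GMP, without overlap. The difference was 2.17 ± 0.84 (limma adjusted p = 0.272). Kif11, Hmmr, Ndc80 and Ect2 were the 4 members whose deleted arrays all lay above the controls, as was so for 1.81% of all genes. Anln differed by 0.94 ± 0.41 and Racgap1 by 0.27 ± 0.57.

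Plk4, Cdc25c and Birc5 had the smallest p of the mitotic kinases, of the CDK genes and of the passenger complex in GMP. Plk4 was at 8.24 on K1603, 7.47 on K1604, 7.30 on K1602, 7.04 on K1581 and 5.28 on K1601 in control and at 9.74 on K1421, 8.90 on K1190, 8.81 on K1272 and 7.94 on K1359 in deleted GMP, overlapping through K1359 alone, and differed by 1.78 ± 0.77. Cdc25c was at 5.97 on K1602, 5.75 on K1604, 5.71 on K1601, 5.21 on K1581 and 5.02 on K1603 in control and at 7.92 on K1190, 7.20 on K1272, 6.11 on K1421 and 5.61 on K1359 in deleted GMP, with K1359 inside the control range, and differed by 1.18 ± 0.60. Its other probe set did not follow it, at -0.17. Birc5 was at 10.24 on K1604, 10.22 on K1603, 8.94 on K1602, 8.57 on K1581 and 8.52 on K1601 in control and at 10.07 on K1359, 9.06 on K1190, 8.91 on K1272 and 6.57 on K1421 in deleted GMP; 1 deleted array, K1421, was far below the rest, and the difference was -0.64 ± 0.56. None of these was called, and the passenger complex genes Incenp, Aurkb and Cdca8 differed by 0.28 ± 0.36, -0.15 ± 0.53 and 0.0057 ± 0.39.

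Cdc20 was the one member lower in deleted GMP at an unadjusted p under 0.05. It stood at 10.37 on K1604, 10.32 on K1603, 10.13 on K1581, 10.06 on K1601 and 9.65 on K1602 in control GMP. In deleted GMP it stood at 9.72 on K1421, 9.42 on K1190, 9.07 on K1272 and 7.87 on K1359, so that only K1421 reached the lowest control. The difference was -1.09 ± 0.37 (limma adjusted p = 0.23). The other probe sets of Cdc20 did not follow it, at -0.26 and 0.027, and the value turned to 0.027 when probe sets that may cross-hybridise were left out. Ube2c, which serves the same complex, differed by -0.24 ± 0.33, Pttg1 by 0.68 ± 0.34 and Espl1 by 0.27 ± 0.97. The other probe sets of Pttg1 went the other way, at -0.89 and -0.27. Of the 75 other probe sets of the members, 47 had the sign of the one used in LSK and 45 in GMP.

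**Figure D5:**
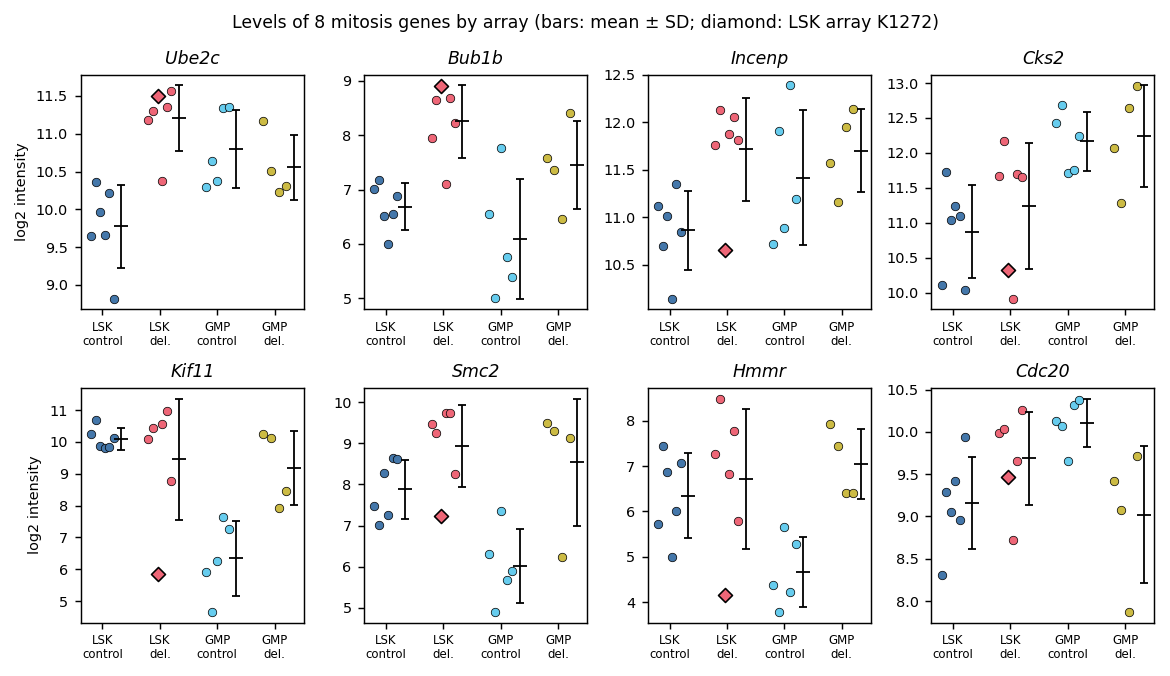
Log2 intensity on each array of Ube2c, Bub1b, Incenp, Cks2, Kif11, Smc2, Hmmr and Cdc20 in the 4 groups, 1 panel a gene, with bars for the mean ± SD and a diamond for LSK array K1272. Ube2c is higher on every deleted LSK array than on any control LSK array, and overlaps between the GMP groups; Kif11 and Hmmr are higher on all deleted GMP arrays, and K1272 is the lowest LSK array for both.

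Between the control cells of GMP and LSK, few mitosis genes were called. Limma called 4 of the 55 members (7.27%), where it called 12.0% of all genes: Ube2c and Cks2 were higher in control GMP and Kif11 and Smc2 lower. The members' share is below that of all genes. The median difference over the members was -0.48, against 0.29 over all genes, and 22 (40.0%) were higher, against 65.8% of all genes. Spindle-associated, kinetochore, chromosome (condensins, Top2a and Mki67) and kinesin genes had medians of -1.53, -1.05, -1.06 and -0.81. Anaphase and passenger complex genes had medians of 0.55 and 0.78. Control GMP arrays had lower upper quartiles (6.19 to 6.57) than control LSK arrays (6.60 to 6.76), so cell type and this property of the arrays cannot be told apart. With the upper quartile as a covariate the median turned to 0.44, with 33 of 55 higher. None of the 4 calls then held (limma adjusted p from 0.0936 for Kif11 to 0.672 for Smc2).

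Kif11 fell most of the 2 called downwards. Control LSK arrays ranged from 9.80 to 10.69 with a median of 9.995, while control GMP arrays stood at 7.64 on K1603, 7.26 on K1604, 6.27 on K1602, 5.92 on K1581 and 4.66 on K1601, with no overlap. The difference was -3.75 ± 0.73 (limma adjusted p = 0.00341); with the upper quartile as a covariate it was -2.08 (limma adjusted p = 0.0936). Its 2 other probe sets were lower as well, but by less, at -1.09 and -1.12. Smc2 ranged from 7.005 to 8.65 with a median of 7.88 in control LSK, against the control GMP values given above, which overlapped through K1602 alone. It fell by 1.86 ± 0.59 (limma adjusted p = 0.0446), and by 0.47 with the upper quartile as a covariate, where it was no longer called (limma adjusted p = 0.672).

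Ube2c rose from control LSK to control GMP. Its control GMP arrays stood at 11.36 on K1604, 11.34 on K1603, 10.63 on K1601, 10.37 on K1602 and 10.29 on K1581, against the control LSK range given above, with a difference of 1.02 ± 0.30 (limma adjusted p = 0.0331). The lowest control GMP array, K1581, was below the highest control LSK array, so the groups overlapped. Cks2, a small subunit that helps CDK1 bind its substrates, ranged from 10.03 to 11.73 with a median of 11.07 in control LSK. In control GMP it stood at 12.69 on K1601, 12.43 on K1581, 12.24 on K1604, 11.76 on K1603 and 11.71 on K1602, overlapping with LSK only at its lowest array, and rose by 1.29 ± 0.41 (limma adjusted p = 0.0472). Its other probe set differed by 1.67. With the upper quartile as a covariate the Ube2c and Cks2 differences were 1.06 and 1.28, no longer called at limma adjusted p of 0.122 and 0.191.

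The number called between control cells rests on which arrays enter the shared spread. Without LSK array K1272, which is in neither control group, limma called 15 members (27.3%), beside 30.4% of all genes. Higher in control GMP were then Cdc20, Ube2c, Cdk1, Cks2 and Aurkb. Lower were Bub1, Nek2, Kif11, Hmmr, Nusap1, Cenpe, Ndc80, Ncapd2, Smc2 and Smc4. Limma called 1 member without control LSK array K1601, K1604 or K1553 or control GMP array K1603, beside 1111 to 1470 of all genes, and 2 without control LSK array K1603, deleted LSK array K1091 or K1422 or control GMP array K1601, K1604 or K1581, beside 1368 to 1888 of all genes. Kif11 was called in each of these. Aurkb was the 1 member whose control GMP arrays all lay above control LSK, as 11.3% of all genes did, and Kif11 the 1 member with all below, as 3.43% did.

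Between Dot1l-deleted GMP and LSK no mitosis gene was called. Limma called 0 of the 55 and 0.143% of all genes, and 2 members (3.64%) had an unadjusted p under 0.05, against 7.28% of all genes. The median difference was -0.022, with 25 of 55 (45.5%) higher in GMP, against 51.4% of all genes. Without K1272 it was -0.25, with 18 of 55 (32.7%) higher, against 60.8% of all genes. Limma again called 0, and Ccna2, Nek2 and Nusap1 (5.45%), all lower in GMP, had an unadjusted p under 0.05, against 10.5% of all genes. With all arrays, Cks2 was higher in deleted GMP by 0.997 ± 0.44 (0.82 without K1272) and Nek2 lower, at -0.92 ± 0.39 (-1.10). Nek2 stood at 7.82 on K1272, 7.52 on K1190, 6.80 on K1359 and 6.46 on K1421 in deleted GMP, against the deleted LSK range given above, and its difference between control cells was -0.93 ± 0.37. The control and the deleted comparison of cell types share no arrays with each other, but each shares its arrays with a deletion comparison.

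Whether the deletion acted differently in the 2 cell types was tested as the difference of the GMP and LSK effects. Limma called 0 of the 55 members, beside 0.033% of all genes. At an unadjusted p under 0.05 there were 6 members (10.9%), below the 13.6% of all genes. The GMP effect was the higher one for Kif11, by 3.47 ± 1.07, for Hmmr, by 2.01 ± 0.91, and for Cenpk, by 2.48 ± 1.10. It was the lower one for Ube2c, at -1.67 ± 0.44, for Cdc20, at -1.61 ± 0.49, and for Cenpa, at -1.28 ± 0.50. The limma adjusted p of Ube2c, 0.181, was the smallest among these, so for no single gene was a difference between LSK and GMP shown. The other probe sets of Cenpa and of Cenpk had the opposite sign in GMP, as given above. Over the members the median difference of effects was 0.24, with 36 of 55 above 0, against 36.2% of all genes. Without K1272 the median was 0.046, with 29 of 55 above 0, against 36.6% of all genes. Limma then called 0 members, and 5 (9.09%) had an unadjusted p under 0.05, against 12.5% of all genes: Kif11 above 0, at 2.76, and Ube2c, Cdc20, Cenpa and Kif22 below. Hmmr and Cenpk were no longer among them, at limma unadjusted p-values of 0.0623 and 0.0657.

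Other genes of the cell cycle were read from lists apart from the 55. For comparison, 58.4% of all genes were higher in deleted LSK (median 0.060) and 34.3% in deleted GMP (median -0.20). Without K1272 the LSK share of all genes was 45.2%. Of 54 further mitosis genes measured, 39 were higher in deleted LSK and 36 in deleted GMP, with medians of 0.38 and 0.26, and limma called none in either; without K1272, 48 were higher in LSK, with a median of 0.58. Of 32 DNA replication genes, 13 were higher in deleted LSK and 18 in deleted GMP, with medians of -0.051 and 0.030; without K1272 the LSK count was 27 and the median 0.21. Of 14 subunits of the anaphase-promoting complex, 7 were higher in deleted LSK and 9 in deleted GMP, with medians of -0.014 and 0.17; without K1272 the LSK count was 12 and the median 0.31. Of 14 G1 cyclins, kinases and inhibitors, 10 were higher in deleted LSK and 5 in deleted GMP, with medians of 0.066 and -0.21; without K1272, 8 were higher in LSK, with a median of 0.003. Limma called none of these lists' genes in either deletion comparison.

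Cohesin holds sister chromosomes together until separase cuts it. Of its 10 measured genes and loaders, 2 were higher in deleted LSK (median -0.26) and 9 in deleted GMP (median 1.44), against 58.4% and 34.3% of all genes. Of the 9 in GMP, 6 had an unadjusted limma p under 0.05, against 5.72% of all genes upwards, and none was called. Without K1272 the direction in LSK turned, with 8 of 10 higher and a median of 0.19. In control GMP all 10 were lower than in control LSK (median -1.52), a comparison in which limma called 12.0% of all genes. Smc1a, an ATPase of the ring, fell there, at -2.14 ± 0.53 (limma adjusted p = 0.015), as did the regulator Pds5b, at -2.60 ± 0.66 (0.0169), and the loader Nipbl, at -3.15 ± 0.95 (0.037). These comparisons share their control GMP arrays, and so do those of the mitosis genes: a gene low on those arrays is at once lower in control GMP than LSK and higher in deleted GMP. For Kif11 the values side by side were -3.75 between control cells and 2.83 after deletion in GMP, for Smc2 -1.86 and 2.52, for Hmmr -1.68 and 2.38, and for Cdc20 0.95 and -1.09.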

How the data were processed

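RNA of the sorted cells was hybridised to Affymetrix mouse arrays as labelled cRNA, per the labels' protocols. The deposited table holds intensities on a linear scale, which the authors made with RMA, according to the submitters' processing notes; no version was found, and the scale was read from the values. Their log2 was analysed as deposited by the authors, without pseudocount or renormalization. The 45101 probe sets were named by the platform's annotation: 34958 carry 1 symbol and cover 18194 genes, while 932 with several symbols and 9211 without any were not used. The sources used here name no scan batch, and precision is limited by the number of arrays.

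Groups came from the labels. Limma 3.58.1 in R 4.3.3 was fitted with 4 group means over 21 arrays for 5 comparisons, with p-values adjusted over all genes by Benjamini-Hochberg and a threshold of 0.05, and was tested on simulated data. Python 3.11.15, pandas 2.3.3, numpy 2.4.6 and matplotlib 3.10.9 served for the rest. The members and lists were chosen with earlier results of these data known. Any member could be named; values by array were given for called members, for the 8 of smallest p in each deletion comparison and for the smallest p of each role, with up to 4 called genes of each other list. Kif22, Bub1 and Kif11 in LSK and Nek2 in deleted GMP were described after their values were seen.

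Alternatives were a repeated quantile normalization, median centring, the upper quartile as a covariate, a filter on dim genes, the mean of a gene's probe sets or unique probe sets alone, trended robust variances, array weights, the K number as a block, the compared groups alone, the closest GMP pair averaged, and each array left out. Gene-by-gene weights and leaving out both K1272 arrays were chosen after seeing the data. No label says what the K numbers mark, and LSK and GMP arrays of 1 K number did not deviate together (9 pairs, correlations from -0.397 to 0.272, 1 above 0.1). The numbers were therefore not taken to pair them in the main fit. Such correlations compare different cell types, so they cannot show that arrays of 1 number came from different mice.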

Additional observations from a re-analysis of the deposited data

Results flagged for a closer look

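Single arrays far from the rest of their group were looked for in 68 groups of values of the named genes, where chance alone gives about 1 in 20. There were 6, and 3 of them were the Dot1l-deleted LSK array K1272. Incenp was at 10.66 there, with the next deleted array at 11.76. Bub1 was at 3.77 against 6.83, and Ndc80 at 7.28 against 8.94. K1359 stood apart for 2 genes: Ube2c in deleted LSK, at 10.37 with the next array at 11.18, and Smc2 in deleted GMP, at 6.24 with the next at 9.13. The last was Nek2 on control GMP array K1603, at 4.77 with the next at 6.35.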

How the results depend on the processing

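Each result was recomputed under 33 to 35 other settings. Where a count of called members moved by over 1.5 times, it was as follows. With array quality weights limma called 13 members in LSK, 10 in GMP, 17 between control cells and 6 for the difference of effects, beside 663, 3778, 7054 and 2416 of all genes. With weights estimated gene by gene it called 12, 27, 15 and 7, and 2 between deleted cells, beside 446, 7153, 6352, 4235 and 1362 of all genes. The array quality weights did not converge. They gave deleted GMP array K1190 a weight of 0.00801, where the gene-by-gene weights gave it 8.89, so these counts are not firm. Between control cells limma called 2 with the upper quartile as a covariate, where the median turned to 0.44, 8 with the mean of all probe sets, 11 with the compared groups alone and 15 without both K1272 arrays, beside 593, 2441, 4439 and 5744 of all genes. With the K number as a replicate block it called 1 there as a random block and 0 as a fixed block, beside 1337 and 454 of all genes; the block changed no other count of called members by that much. Cdc20 in GMP turned to 0.027 without the probe sets whose names end in _s_at, _x_at or _a_at, some of which may cross-hybridise. The probe sets used for 26 of the 55 members have such names, among them those of Bub1b, Incenp, Cdc25c, Smc2, Hmmr and Ect2.

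Leaving out each array in turn gave 0 to 1 called members in LSK, 0 to 4 in GMP, 1 to 15 between control cells, 0 to 0 between deleted cells and 0 to 0 for the difference of effects. The calls of all genes moved too. Beside the 1 member in LSK, without deleted LSK array K1359, 33 of all genes were called. Without LSK array K1272, 390 of all genes were called beside the 4 members in GMP, and 5531 beside the 15 between control cells. The medians were 0.27 to 0.72, 0.63 to 1.03, -0.59 to -0.27, -0.25 to 0.14 and 0.046 to 0.50, in the same order. The cause of these changes was not tested. The deleted GMP arrays K1190 and K1272 were the closest pair of all, with a Spearman correlation of 0.982, and averaging them as 1 sample moved none of these counts by over 1.5 times. With 4 to 6 arrays a group, 1 array apart in LSK and low upper quartiles on most GMP arrays, small differences could not be shown. Larger ones can be missed too. In simulated data limma called 17 of 100 genes changed by 1 in log2 for LSK and 16 of 100 for GMP. Of 100 genes changed by 2, it called 74 and 72. A gene not called is not shown to be unchanged.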

Other observations

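Called genes of the other cell cycle lists lay between the control cells, where limma called 2180 of all genes (12.0%). Cell type and the upper quartile of the arrays cannot be told apart there. With the upper quartile as a covariate limma called 593 of all genes, and the values below are without it. Rbl2, the pocket protein of the DREAM complex in quiescent cells, fell from control LSK to control GMP, at -3.39 ± 0.54 (limma adjusted p = 0.000661), and Mybl2, its counterpart in dividing cells, rose by 1.19 ± 0.33 (0.0272). Of 14 subunits of the anaphase-promoting complex, Anapc11 and Anapc13 rose, by 2.35 ± 0.54 and 1.03 ± 0.28, and Cdc23 and Anapc4 fell, at -2.71 ± 0.65 and -1.84 ± 0.59, all called by limma. Of the 54 further mitosis genes, Cenpm rose by 1.76 ± 0.42, and Aspm and Zwint fell, at -2.35 ± 0.66 and -1.45 ± 0.42. Of 32 DNA replication genes Cdc45 rose by 0.73 ± 0.18 and Rfc1 fell, at -2.60 ± 0.69, and of 14 G1 genes the cyclin Ccnd2 fell, at -0.47 ± 0.15.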
